A study of Homo sapiens with 24 samples.

Results

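Transcripts of 8 genes of cholesterol metabolism were followed in A549, an established line from a human lung adenocarcinoma, across every combination of a BOP1 knockdown, interferon beta and time. The genes were HMGCS1, IDI1, FDFT1, SQLE, DHCR7, INSIG1, SREBF2 and CH25H, taken by name from the 60609 rows of a table of TPM, the share of transcripts that a gene takes after correction for length, whose versioned Ensembl identifiers were matched to symbols. All 8 members of this set had a row, and 7 passed the filter for testing (at least 1 TPM in at least 3 libraries), as did 16062 genes in all. CH25H did not pass. Cells had been transfected for 48 h with an siRNA pool against BOP1, a factor for assembly of the large ribosomal subunit, or with an siRNA against firefly luciferase as the control, here siBOP1 and siFLuc. They then received mock treatment or interferon beta (IFN) at 1000 U/mL for 8 h or 12 h. The 8 groups were thus siFLuc mock, siFLuc IFN, siBOP1 mock and siBOP1 IFN at 8 h and the same 4 at 12 h, each with 3 libraries of polyadenylated RNA. Every group was transfected, so no untransfected cells serve as a baseline, and all cells come from 1 line. Nothing in the labels says whether the libraries of a group came from separate cultures, so p-values measure the spread between these libraries only. TPM keeps no sequencing depth, and the depth of each library is unknown.

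Cells make cholesterol from acetyl-CoA through the mevalonate pathway and also take it up from lipoproteins. The transcription factor SREBP-2, the product of SREBF2, raises transcription of the synthesis and uptake genes when sterols in the endoplasmic reticulum are low, and INSIG1 holds its precursor there when sterols are high. Interferon is known to lower sterol synthesis in macrophages, and CH25H, which makes 25-hydroxycholesterol, is an interferon-induced gene in macrophages and other cells. HMGCS1 makes HMG-CoA, IDI1 isomerizes isopentenyl diphosphate, FDFT1 makes squalene, SQLE oxidizes it, and DHCR7 carries out a final reduction on the way to cholesterol.

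Both treatments, and epithelial markers of A549, were visible in the table. BOP1 stood at 10.0 to 19.5 TPM in the 12 siBOP1 libraries and at 32.4 to 78.8 TPM in the 12 siFLuc libraries. IFIT1, an interferon-induced gene, was at 0.676 to 3.81 TPM in mock libraries and at 553.5 to 1436 TPM with IFN, and MX1 and ISG15 likewise did not overlap between mock and IFN libraries. The epithelial keratin KRT8 was at 2086 TPM or more and AKR1B10, an enzyme abundant in A549, at 1887 TPM or more in every library. PTPRC, a marker of leukocytes, did not pass 0.021 TPM and the endothelial marker PECAM1 did not pass 0.345 TPM, while the fibroblast collagen COL1A1 was at 5.37 to 19.3 TPM. EPCAM, an epithelial marker, reached only 1.92 to 5.48 TPM, and the alveolar markers SFTPB and SFTPC stood at 0 in at least 1 library and at no more than 0.395 and 1.61 TPM.

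A library numbered 4 in each group matches no labelled replicate number and can stand apart from the libraries numbered 1 and 2, which bears on these genes at 12 h. In siFLuc mock 12 h, HMGCS1 was at 129.2 and 114.7 TPM in libraries 1 and 2 and at 278.1 TPM in library 4, a difference of 1.19 on the log2 scale. In that group library 4 was also above libraries 1 and 2 for IDI1, FDFT1, SQLE, DHCR7, INSIG1 and SREBF2. In siBOP1 mock 12 h, by contrast, library 4 was below both for HMGCS1, IDI1, FDFT1, SQLE, INSIG1 and SREBF2. The median absolute log2 difference over all tested genes between library 4 and the mean of the other two was 0.324 in siFLuc mock 12 h, against 0.139 between libraries 1 and 2. For the members, the IFN and siRNA comparisons are therefore given with and without the libraries numbered 4.

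The promoters of the genes are shown first, because SREBP-2 is known to act at such sites together with the factors NF-Y and Sp1. RefSeq windows of 300 bases around a transcription start (GRCh38.p14) were at hand for 6 of the 8 genes, with 10 starts among them. SQLE and FDFT1 had no matched window. One window is printed for the enzyme that makes HMG-CoA (HMGCS1, chr5:43313363-43313662, minus strand) and one for the last reductase (DHCR7, chr11:71448344-71448643, minus strand). Another is printed for the sterol sensor's partner (INSIG1, chr7:155297628-155297927, plus strand) and one for SREBF2 itself (chr22:41832855-41833154, plus strand). Each reads 5′ to 3′ in the direction of the gene. Capitals mark matches to the NF-Y box CCAAT, read ATTGG where it lies on the other strand, and to the sterol regulatory element TCACNCCAC.
HMGCS1: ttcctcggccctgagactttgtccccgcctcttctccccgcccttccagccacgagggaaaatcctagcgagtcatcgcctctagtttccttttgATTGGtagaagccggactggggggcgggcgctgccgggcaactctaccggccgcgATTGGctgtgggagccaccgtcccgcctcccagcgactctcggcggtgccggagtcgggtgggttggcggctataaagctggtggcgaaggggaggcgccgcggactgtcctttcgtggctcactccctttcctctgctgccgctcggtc
DHCR7: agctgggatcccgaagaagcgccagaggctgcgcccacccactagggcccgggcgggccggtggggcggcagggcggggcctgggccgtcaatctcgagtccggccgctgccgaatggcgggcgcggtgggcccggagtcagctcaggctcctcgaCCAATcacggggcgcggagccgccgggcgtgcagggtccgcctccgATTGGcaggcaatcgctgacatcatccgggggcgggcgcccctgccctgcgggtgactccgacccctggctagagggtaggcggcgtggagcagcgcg
INSIG1: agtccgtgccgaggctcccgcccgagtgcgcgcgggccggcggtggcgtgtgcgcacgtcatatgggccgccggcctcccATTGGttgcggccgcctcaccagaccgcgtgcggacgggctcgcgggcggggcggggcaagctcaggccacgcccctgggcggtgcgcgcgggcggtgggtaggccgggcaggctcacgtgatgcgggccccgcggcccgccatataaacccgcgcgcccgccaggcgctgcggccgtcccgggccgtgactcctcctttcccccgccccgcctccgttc
SREBF2: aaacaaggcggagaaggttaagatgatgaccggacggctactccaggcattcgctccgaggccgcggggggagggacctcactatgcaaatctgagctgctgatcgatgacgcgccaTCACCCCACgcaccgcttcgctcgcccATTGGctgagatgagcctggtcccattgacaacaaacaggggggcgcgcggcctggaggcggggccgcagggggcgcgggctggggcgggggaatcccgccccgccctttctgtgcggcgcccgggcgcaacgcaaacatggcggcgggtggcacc

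Both strands were searched for 4 motifs. The sterol regulatory element was found in SREBF2 alone among the 6 genes, 133 bases before the start, and in 1.39% of 27305 genes with a window. The NF-Y box was found in 5 of the 6 (HMGCS1, IDI1, INSIG1, DHCR7 and SREBF2, not CH25H), against 39.7% of all genes. In HMGCS1 it lay at 155 and 100 bases before the start, in DHCR7 at 94 and 48, in INSIG1 at 170 and in SREBF2 at 106. IDI1 had matches at 2 of its 3 starts, of which the pair at 132 and 129 bases before 1 start overlap each other on opposite strands. The GC box GGGCGG, the core of Sp1 sites, was in all 6 genes, against 48.3% of all genes. The interferon-stimulated response element, searched as TTTC, any 2 bases and TTTC, was in none of the 6, against 4.38% of all. Among 16 enzyme genes of synthesis with a window, members included, 14 held the NF-Y box, 15 the GC box, 1 (GGPS1) the response element and none the sterol element. These are matches of letters in short windows, and no binding was measured.

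**Figure D1:**
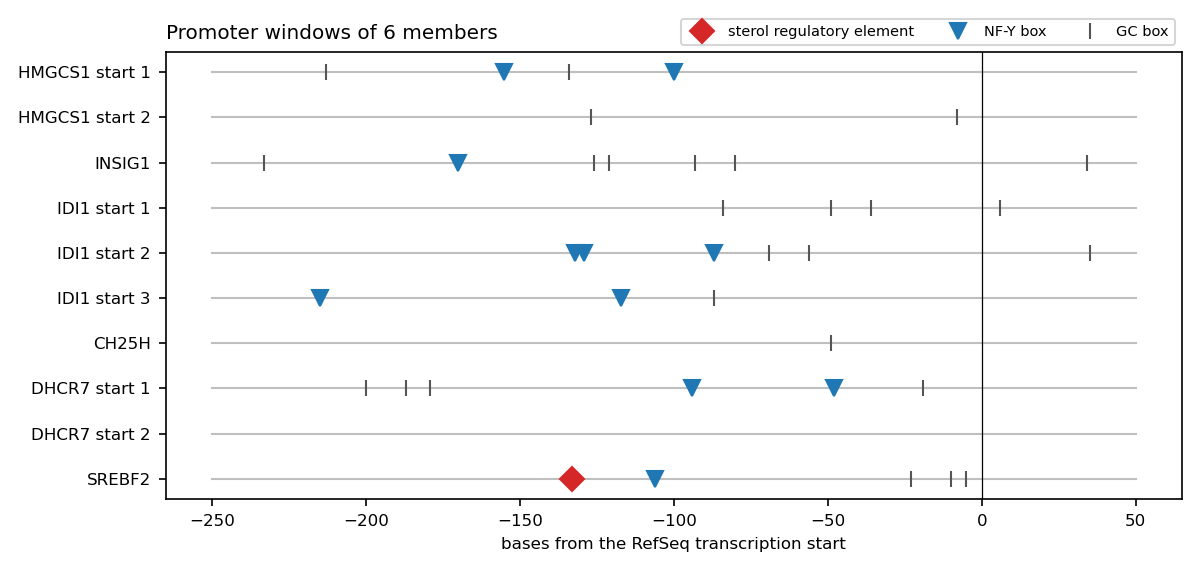
Positions of 3 motifs in the 10 RefSeq promoter windows of 6 genes, in bases from the transcription start (x axis). Grey lines are the 300 base windows. The single sterol regulatory element lies 133 bases before the SREBF2 start, and NF-Y boxes (triangles) lie before the starts of 5 genes.

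Of the 8 transcripts, 7 were abundant in every library and moved within a narrow range, whereas CH25H was at or near 0. On the TPM scale, which is corrected for transcript length, the median over 24 libraries was 221.5 for FDFT1, 189.6 for HMGCS1, 133.2 for INSIG1, 128.6 for SQLE, 118.6 for IDI1, 117.0 for DHCR7 and 84.7 for SREBF2. The highest library exceeded the lowest 2.42 times for HMGCS1, 1.88 times for DHCR7 and between 1.48 and 1.77 times for the other 5. The ranges of INSIG1, SQLE, IDI1 and DHCR7, from 94.9 to 160.6, from 103.9 to 171.1, from 103.7 to 157.1 and from 90.2 to 169.8 TPM, overlapped broadly, so the order among these 4 is not a firm one. CH25H had a median of 0.047 TPM, a highest value of 0.398 TPM, and was listed at 0 in 11 of 24 libraries.

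**Figure D2:**
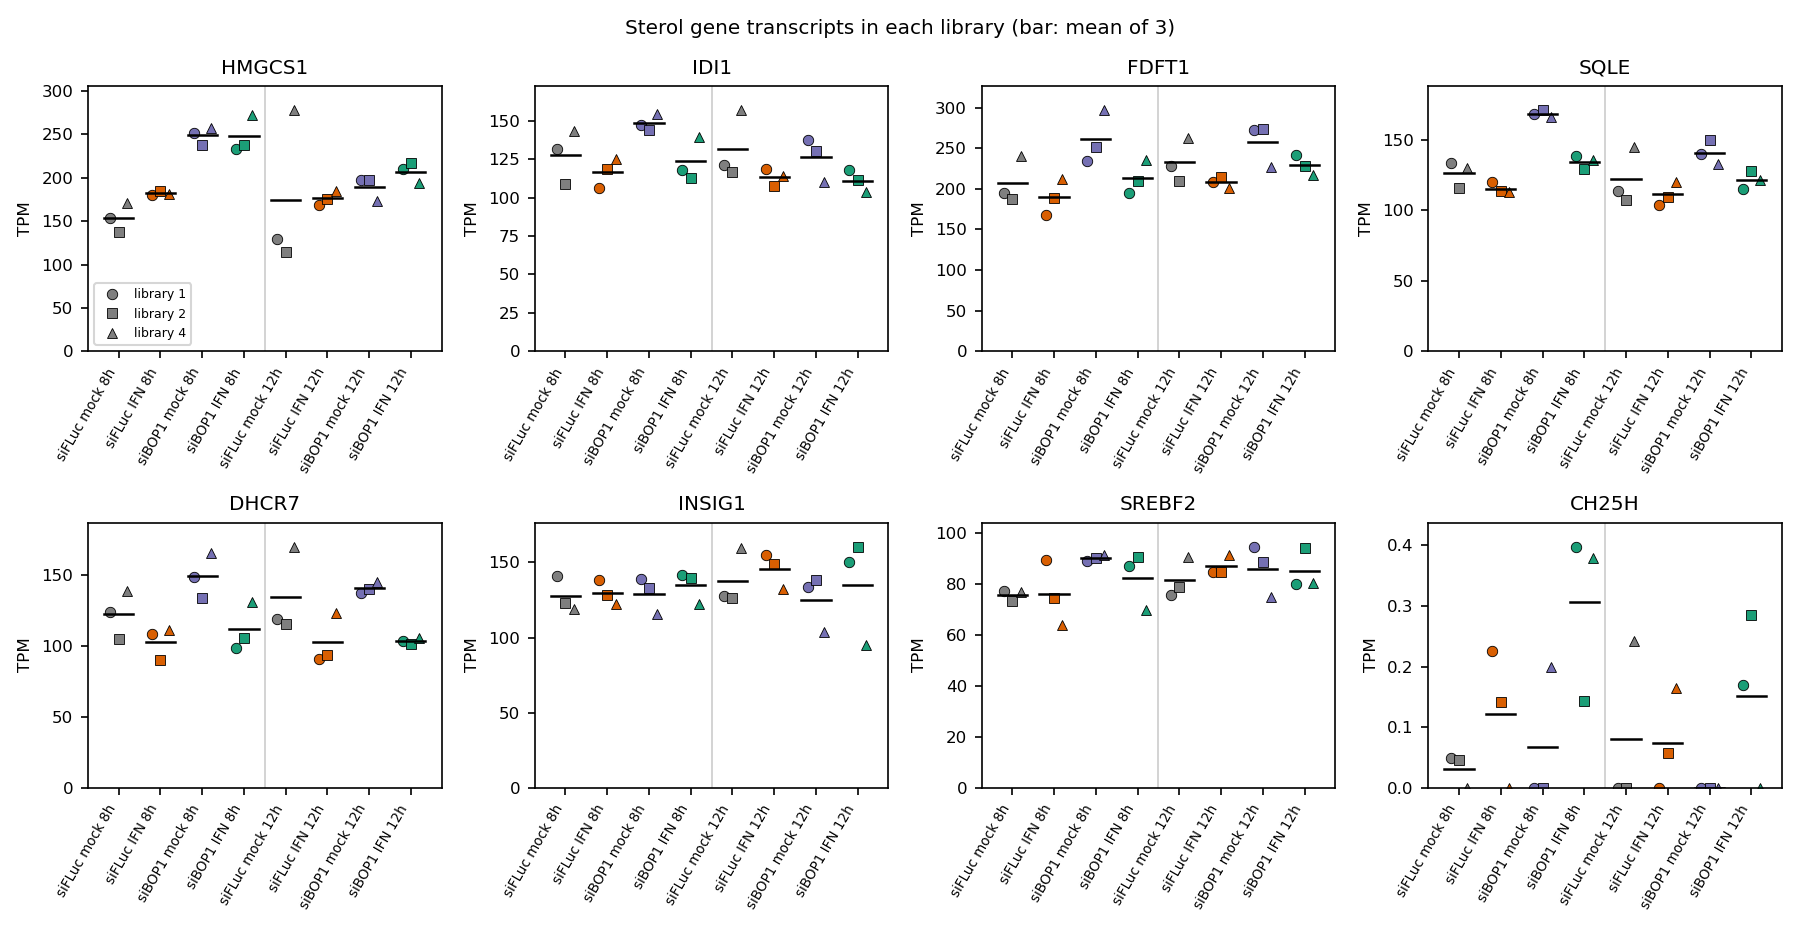
TPM (y axis, from 0) of the 8 genes in each of 24 libraries, by group (x axis, 8 h left and 12 h right of the grey line). Circles, squares and triangles are the libraries numbered 1, 2 and 4 and bars are means of 3. HMGCS1 in siFLuc mock 12 h shows the library numbered 4 at 278.1 TPM, apart from the others, and CH25H lies below 0.4 TPM throughout.

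IFN was compared with mock for each siRNA and time, to show what interferon did to these genes with normal and with low BOP1. DHCR7, SQLE, FDFT1 and IDI1 had lower means with IFN in all 4 comparisons, by between 8.65% and 26.6% in TPM, while INSIG1 had slightly higher means, by between 1.76% and 8.07%. With limma on log2(TPM + 1) and Benjamini-Hochberg adjustment over all tested genes, DHCR7 passed a threshold of 0.05 in siBOP1 at 12 h and SQLE in siBOP1 at 8 h. No member passed in siFLuc. In bulk RNA, fewer cells with a transcript and less of it per cell cannot be told apart. That makes 0, 0, 1 and 1 of 7 tested members lower in siFLuc at 8 and 12 h and in siBOP1 at 8 and 12 h, where 5.07%, 6.43%, 9.11% and 7.58% of all tested genes were called lower. None was called higher, where 5.77%, 7.06%, 5.99% and 7.17% of all genes were. At an unadjusted p under 0.05 the counts lower were 0, 1 (DHCR7), 4 (IDI1, FDFT1, SQLE and DHCR7) and 2 (SQLE and DHCR7), with none higher. Of the 16062 tested genes 3659, 4239, 4486 and 4381 reached it, in either direction.

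DHCR7 showed the largest IFN differences among the members in the fit to all libraries. At 12 h in siBOP1 it was at 137.2, 140.3 and 145.2 TPM in mock libraries 1, 2 and 4 and at 103.5, 101.3 and 105.4 TPM with IFN. The groups did not overlap, and DHCR7 fell by 0.44 (SE 0.15, limma adjusted p = 0.0475). At 8 h in siBOP1 the mock values were 148.7, 133.7 and 165.2 TPM and the IFN values 98.6, 105.4 and 130.6 TPM, again without overlap, with a difference of -0.42 (limma adjusted p = 0.0585, or 0.00298 with a replicate block). In siFLuc at 12 h mock gave 118.5, 115.4 and 169.8 TPM and IFN 90.6, 93.6 and 123.3 TPM. Within each library number IFN was the lower, but the groups overlapped, each with its library 4 the highest, and the difference of -0.38 had a limma adjusted p of 0.0965, or 0.00638 with the block. Without siFLuc mock library 4 it was -0.20. The 8 h difference in siFLuc was -0.24 (limma adjusted p = 0.352). The siBOP1 12 h call was lost when any 1 of the 6 libraries compared was left out (-0.46 to -0.42, limma adjusted p 0.0722 to 0.132), while the difference itself hardly moved.

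SQLE, which encodes an oxygen-requiring and often rate-limiting enzyme, was also lower with IFN in siBOP1. At 8 h it was at 168.4, 171.1 and 166.1 TPM in mock and at 138.5, 129.2 and 135.9 TPM with IFN. All 3 IFN values lay below all mock values, and SQLE fell by 0.32 (SE 0.09, limma adjusted p = 0.0213). Leaving out 1 library gave -0.34 to -0.30 and kept the call in 3 of 6 fits (limma adjusted p 0.0405 to 0.0894); it was lost without siBOP1 IFN library 2, siBOP1 mock library 1 or siBOP1 mock library 2. At 12 h in siBOP1 the values were 140.2, 149.8 and 132.5 TPM in mock and 115.4, 128.0 and 121.7 TPM with IFN, which also did not overlap (-0.21, limma adjusted p = 0.147). In siFLuc the SQLE groups overlapped at both times, with differences of -0.13 and -0.12.

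The scale on which IFN libraries are compared matters for these small differences. The median over all tested genes was itself -0.09, -0.06, -0.14 and -0.08 in the 4 IFN comparisons, and median-of-ratios rescaling brought it to -0.02, -0.01, -0.01 and -0.01. In siBOP1 at 8 h, 962 genes were called higher and 1464 lower before rescaling and 1302 higher and 728 lower after it. The split moved the same way in siFLuc at 8 h (927 higher and 814 lower before, 1128 and 532 after), in siFLuc at 12 h (1134 and 1032, then 1374 and 804) and in siBOP1 at 12 h (1152 and 1218, then 1417 and 868). After rescaling, the SQLE difference in siBOP1 at 8 h was -0.17 (limma adjusted p = 0.198) and its call ended, and DHCR7 in siBOP1 at 12 h was -0.37 (limma adjusted p = 0.0480) and kept its call. FDFT1 and IDI1 stayed below 0 in all 4 comparisons after rescaling, as did SQLE and DHCR7.

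The other members did not pass the test with IFN. FDFT1 ranged from -0.29 to -0.13 over the 4 comparisons, and in siBOP1 at 8 h, where mock gave 234.7, 251.9 and 296.8 TPM and IFN 195.0, 209.6 and 235.6 TPM, the groups overlapped by 1 library each but every numbered pair was lower with IFN, and it passed with the replicate block (-0.29, limma adjusted p = 0.107, block 0.0133). IDI1, the isomerase, ranged from -0.27 to -0.13 and had its smallest limma adjusted p, 0.143, in siBOP1 at 8 h. HMGCS1 lay at 0.24 and 0.14 in siFLuc and at -0.01 and 0.13 in siBOP1, and at 8 h in siFLuc its 3 IFN libraries were above its 3 mock libraries. INSIG1 lay between 0.03 and 0.09, and SREBF2 between -0.14 and 0.09. With the block, 0, 1, 3 and 1 members passed, all lower, against 12.7%, 15.8%, 20.4% and 16.6% of all genes called lower with it and 8.24%, 11.2%, 8.56% and 11.4% higher.

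Without the libraries numbered 4, HMGCS1 rose with IFN in siFLuc. There it was at 153.7 and 137.3 TPM in mock 8 h libraries 1 and 2 and at 180.4 and 184.2 TPM with IFN, and at 12 h at 129.2 and 114.7 TPM in mock and at 169.0 and 176.1 TPM with IFN. HMGCS1 was thus higher with IFN in both numbered pairs at both times, by 0.33 (limma adjusted p = 0.00824) and 0.50 (limma adjusted p = 0.000322). Leaving out siFLuc mock 12 h library 4 alone gave 0.53 (limma adjusted p = 0.000515) at 12 h. With libraries 1 and 2, INSIG1 rose by 0.26 at 12 h (limma adjusted p = 0.0234). DHCR7 was the 1 member called lower in siFLuc at 12 h in that fit, and IDI1, FDFT1, SQLE and DHCR7 were called lower in siBOP1 at 8 h, then SQLE and DHCR7 at 12 h. These are 1, 2, 0 and 0 members higher, where 7.33%, 9.85%, 8.13% and 10.2% of all genes were, and 0, 1, 4 and 2 lower, where 8.65%, 11.3%, 13.6% and 13.7% were.

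CH25H, the 25-hydroxylase, stayed below 0.4 TPM with IFN. In siFLuc at 8 h it was listed at 0.049, 0.045 and 0 TPM in mock and 0.226, 0.141 and 0 TPM with IFN. In siBOP1 at 8 h the values were 0, 0 and 0.200 TPM in mock and 0.398, 0.143 and 0.379 TPM with IFN. At 12 h the highest value was 0.285 TPM, in a siBOP1 IFN library, and siBOP1 mock was at 0 in all 3. Such values are near the lower end of the table and no test was made. Of the other oxysterol genes, CYP7B1 did not pass 0.866 TPM, CYP27A1 and CYP46A1 did not pass 0.331 TPM, and GPR183, a receptor for an oxysterol, was at 0 in all 24 libraries.

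siBOP1 was then compared with siFLuc, which asks what a lower level of the ribosome assembly factor did to sterol genes with and without IFN. In mock-treated cells at 8 h all 7 tested members had higher fitted levels in siBOP1, by between 0.02 and 0.69 on the log2 scale. SQLE rose. The library values for SQLE were 133.3, 115.9 and 129.8 TPM in siFLuc and 168.4, 171.1 and 166.1 TPM in siBOP1, without overlap, and the difference was 0.42 (SE 0.09, limma adjusted p = 0.0202). One of 7 members was thus called higher, where 1.49% of all tested genes were, and none lower, where 0.666% were. The SQLE call was lost without any 1 of 5 of the 6 libraries, all but siFLuc mock library 1 (0.35 to 0.45, limma adjusted p up to 0.117), and when the fit held only the 2 groups (limma adjusted p = 0.0834).

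HMGCS1 had the largest difference of the members in that comparison. It was at 153.7, 137.3 and 171.4 TPM in siFLuc and at 252.0, 237.4 and 257.7 TPM in siBOP1, with every siBOP1 library above every siFLuc library and means 1.62-fold apart. The fitted difference of 0.69 (SE 0.19) missed the threshold (limma adjusted p = 0.0717) and passed with the replicate block (0.0353) and with libraries 1 and 2 alone (0.75, limma adjusted p = 0.000806). The wide spread of HMGCS1 in siFLuc mock 12 h enters this SE, since all groups share 1 estimate. FDFT1 differed by 0.33 (limma adjusted p = 0.174, block 0.0172), DHCR7 by 0.29 (0.435), SREBF2 by 0.25 (0.371), IDI1 by 0.22 (0.477) and INSIG1 by 0.02 (0.989). HMGCS1, FDFT1, SQLE and SREBF2 reached an unadjusted p under 0.05, as did 2076 of the 16062 tested genes, in either direction. With the block 3 members (HMGCS1, FDFT1 and SQLE) were called higher, where 5.91% of all genes were. In the other 3 siRNA comparisons no member was called with it, where 4.31%, 4.97% and 2.16% of all genes were higher. No member was lower with the block in the 4 siRNA comparisons, where 2.58%, 3.35%, 3.84% and 1.61% of all genes were.

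In IFN-treated cells at 8 h the same 7 members again lay above 0, between 0.05 and 0.44, and none passed. HMGCS1 was at 180.4, 184.2 and 181.2 TPM in siFLuc IFN and at 233.1, 237.4 and 273.0 TPM in siBOP1 IFN, which did not overlap (0.44, limma adjusted p = 0.311). SQLE, at 119.8, 113.6 and 112.8 TPM against 138.5, 129.2 and 135.9 TPM, did not overlap either (0.22, limma adjusted p = 0.277). These 2 genes reached an unadjusted p under 0.05, as did 2191 of the 16062 tested genes, in either direction. No member was called, where 1.25% of all genes were called higher and 0.76% lower.

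At 12 h the calls in mock cells turned on the libraries numbered 4, while with IFN no member was called with or without them. With all libraries, 5 of 7 members lay above 0 in mock cells and 4 of 7 with IFN, and none passed, where 0.903% and 0.392% of all genes were called higher and 0.697% and 0.268% lower. One member in mock cells, SQLE, and none with IFN reached an unadjusted p under 0.05. Of the 16062 tested genes 2051 in mock cells and 1444 with IFN reached it, in either direction. With libraries 1 and 2 alone, HMGCS1 was at 129.2 and 114.7 TPM in siFLuc mock against 197.4 and 197.4 TPM in siBOP1 mock and rose by 0.69 (limma adjusted p = 0.00123), where the fit to all libraries gave 0.24 (limma adjusted p = 0.688). SQLE then rose by 0.39 (limma adjusted p = 0.0354) and FDFT1 by 0.32 (limma adjusted p = 0.0487). Without only the siFLuc mock library numbered 4, HMGCS1 was 0.63 higher (limma adjusted p = 0.00233). In the fit of libraries 1 and 2, HMGCS1, FDFT1 and SQLE were called higher in mock cells at 8 h and again at 12 h, HMGCS1 alone with IFN at 8 h and no member with IFN at 12 h. These are 3, 3, 1 and 0 members, where 1.63%, 1.01%, 2.3% and 0.299% of all genes were. The library numbered 4 of siFLuc mock 12 h differed from the other 2 over the whole table, as given above, and its part in the result was not tested beyond leaving it out.

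**Figure D3:**
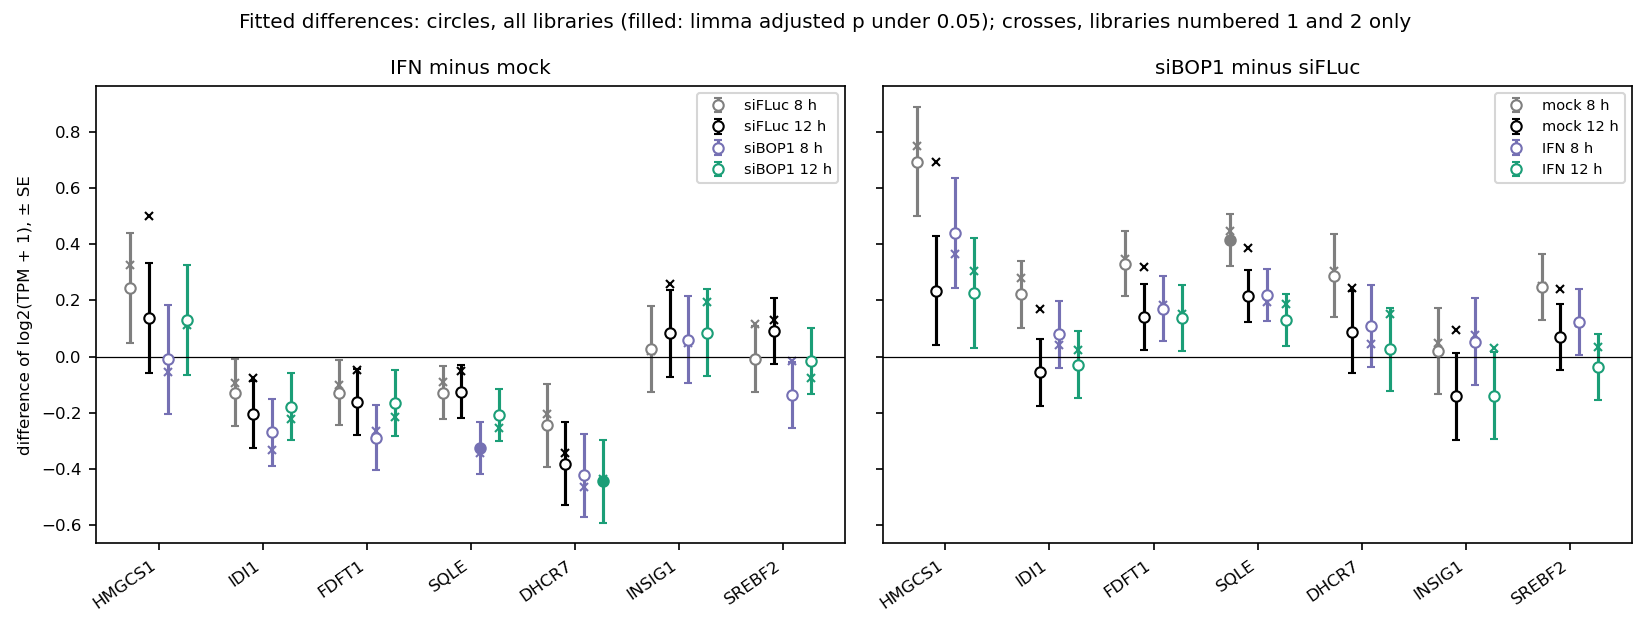
Fitted differences of log2(TPM + 1) with SE (y axis) for the 7 tested genes (x axis), IFN minus mock on the left and siBOP1 minus siFLuc on the right. Circles are fits to all libraries, filled where the limma adjusted p was under 0.05, and crosses are fits to libraries 1 and 2. The filled circles are SQLE and DHCR7 with IFN in siBOP1 and SQLE with BOP1 siRNA in mock 8 h, and the cross for HMGCS1 in mock 12 h lies at 0.69 against a circle at 0.24.

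Time and the interactions added no calls. Between 8 h and 12 h the 28 differences of the 7 members ran from -0.40 to 0.21, and the lowest limma adjusted p was 0.340. The -0.40 was HMGCS1 in siBOP1 mock, whose values of 252.0, 237.4 and 257.7 TPM at 8 h and 197.4, 197.4 and 173.1 TPM at 12 h did not overlap. In that comparison all 7 members were below 0, and SQLE reached an unadjusted p under 0.05, the only one of the 28 to do so. Of the 16062 tested genes 2067, 3094, 1549 and 2897 reached it in siFLuc mock, siFLuc IFN, siBOP1 mock and siBOP1 IFN, in either direction. Over all genes 0.118%, 2.83%, 0.137% and 2.45% were called higher at 12 h in siFLuc mock, siFLuc IFN, siBOP1 mock and siBOP1 IFN, and 0.0125%, 0.697%, 0.0934% and 0.511% lower. For the difference of the IFN effect between siRNAs, the members ran from -0.25 to 0.03 at 8 h and 6 of 7 lay below 0, at a limma adjusted p of 1 throughout and with none at an unadjusted p under 0.05. So the SQLE and DHCR7 calls in siBOP1 are not shown to differ from siFLuc. No gene of the table passed that interaction at either time (0% higher, 0% lower). For the difference of the IFN effect between times the members ran from -0.14 to 0.14, none reached an unadjusted p under 0.05, and 0% of all genes were called higher and 0.00623% lower in siFLuc, with 0% in siBOP1.

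HMGCS1, SQLE, IDI1, INSIG1, FDFT1 and DHCR7 were averaged as the mean of their z-scores in each library. Over 24 libraries INSIG1 varied little with the other 5 (Pearson r of log2 levels from -0.20 with DHCR7 to 0.20 with HMGCS1). The lowest r among those 5 was 0.36. This contrast was weaker with libraries 1 and 2 alone. There r of INSIG1 ran from -0.32 with DHCR7 to 0.47 with HMGCS1, and the lowest among the 5 was 0.15 (HMGCS1 with DHCR7). The libraries share groups, and these r are descriptions. The mean was highest as a group in siBOP1 mock 8 h (1.08, 0.95 and 1.28 in libraries 1, 2 and 4) and low in siFLuc IFN 8 h (-0.72, -0.74 and -0.41). These 2 groups did not overlap, but they were picked as the high and low ends and differ in both siRNA and IFN. In siFLuc mock 12 h libraries 1 and 2 gave -0.49 and -0.83 and library 4 gave 1.499, the highest of all 24. In siBOP1 mock 12 h the order was reversed, with 0.65 and 0.72 in libraries 1 and 2 and -0.31 in library 4.

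**Figure D4:**
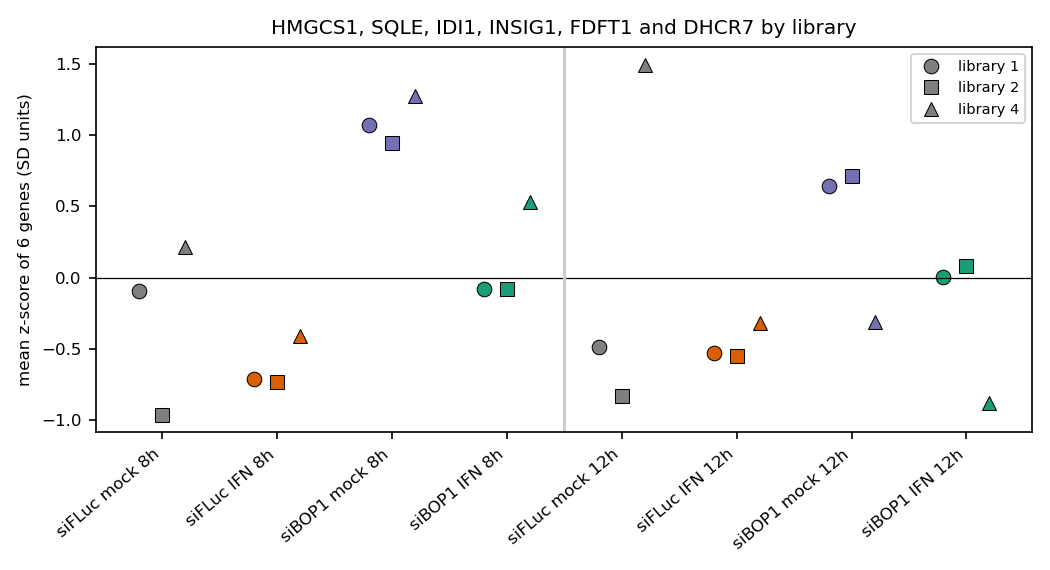
Mean z-score of 6 genes (y axis, in SD over 24 libraries) in each library, by group (x axis). Symbols are library numbers. siBOP1 mock 8 h lies between 0.95 and 1.28, and the library numbered 4 of siFLuc mock 12 h, at 1.499, lies apart from its group.

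The 10 genes whose log2(TPM + 1) over the 24 libraries was most like that mean, of 10580 non-member genes with a mean of at least 5 TPM, were CERS2 (Pearson r 0.84), MSMO1 (0.82), RHOB (0.80), NSDHL, ACLY, SUCLG2 and MVD (0.78 each), FADS1 (0.77), FADS2 and ALDH9A1 (0.76 each). MSMO1, NSDHL and MVD encode enzymes of sterol synthesis, ACLY makes cytosolic acetyl-CoA, and FADS1 and FADS2 are fatty acid desaturases. These 6 of the 10 were in the pathway lists, which held 44 of the 10580 genes compared. The 50 most alike held only 7 genes of the lists. CERS2 is a ceramide synthase and RHOB a small GTPase. With libraries 1 and 2 alone, r for these 10 ran from 0.67 to 0.89. The libraries share groups, and same-numbered libraries deviated together, so r is a description. CH25H, at 0 in many libraries, gave no pattern to match.

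The rest of the pathway was read from lists by role, with 51 genes beside the 8, of which 47 were tested. From acetyl-CoA to cholesterol, 19 enzymes were tested, 5 of them members (HMGCS1, IDI1, FDFT1, SQLE and DHCR7). With IFN 17, 16, 17 and 16 of these 19 lay below 0 in siFLuc at 8 and 12 h and in siBOP1 at 8 and 12 h, with medians of -0.14, -0.20, -0.31 and -0.29 beside the medians over all genes given above. Those called lower were 1, 2, 3 and 5, where 5.07%, 6.43%, 9.11% and 7.58% of all tested genes were. None was called higher or reached an unadjusted p under 0.05 in that direction. Over all genes 5.77%, 7.06%, 5.99% and 7.17% were called higher. With the replicate block the counts lower were 4, 6, 11 and 9, where 12.7%, 15.8%, 20.4% and 16.6% of all genes were. After median-of-ratios rescaling the medians were -0.06, -0.14, -0.16 and -0.22 and the counts lower 1, 2, 1 and 4. After it 532, 804, 728 and 868 of the 16062 tested genes were called lower.

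MVK, mevalonate kinase, was the enzyme called in all 4 IFN comparisons. In siFLuc at 8 h it was at 41.3, 41.5 and 44.6 TPM in mock and 25.3, 25.9 and 26.8 TPM with IFN, and in siBOP1 at 8 h at 42.3, 44.7 and 41.4 TPM and 20.1, 22.3 and 25.0 TPM. The groups did not overlap, and MVK fell by 0.69 to 0.90 over the 4 comparisons (limma adjusted p at most 0.000288). PMVK, the next kinase, fell at 12 h with either siRNA, by 0.64 in each. With the replicate block PMVK was called lower in all 4 comparisons.

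Some genes that handle cholesterol already in the cell were higher with IFN. STARD4, a carrier of cholesterol between membranes, rose in all 4 comparisons by 1.54 to 1.73 (limma adjusted p at most 1.73e-09). In siFLuc at 8 h it was at 27.4, 23.3 and 19.5 TPM in mock and 83.2, 79.1 and 75.5 TPM with IFN. LIPA, the lysosomal acid lipase that frees cholesterol from esters taken up with lipoproteins, rose in all 4 by 1.01 to 1.45 (limma adjusted p at most 2.76e-09), and in siFLuc at 12 h was at 66.7, 69.9 and 80.6 TPM in mock and 158.5, 158.0 and 158.6 TPM with IFN. Neither gene's groups overlapped in these comparisons. ABCA1, which exports cholesterol, rose at 12 h by 1.07 in siFLuc and 1.04 in siBOP1, and its 8 h differences of 0.37 and 0.35 did not pass. The difference of its IFN effect between the times was not called with either siRNA. ABCA1 was at 2.34 to 10.8 TPM over the 24 libraries, a level at which the 1 added before the log matters. Of 8 uptake and transport genes tested, 2, 2, 2 and 2 were called higher, STARD4 and LIPA each time, and none lower, also at an unadjusted p under 0.05. Over all genes 5.77%, 7.06%, 5.99% and 7.17% were called higher and 5.07%, 6.43%, 9.11% and 7.58% lower.

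Sterol sensing and SREBP control was read from 11 genes, which include SREBF2 and INSIG1. With IFN 0, 1, 1 and 1 of the 11 were called higher and 1, 0, 1 and 0 lower, in the same order of comparisons. Over all genes 5.77%, 7.06%, 5.99% and 7.17% were called higher and 5.07%, 6.43%, 9.11% and 7.58% lower. RNF145, a ubiquitin ligase that responds to sterols, rose in 3 comparisons, by 0.32 to 0.48, and RNF139, another ligase of the endoplasmic reticulum, fell at 8 h by 0.69 in siFLuc and 0.54 in siBOP1, the latter with an adjusted p of 0.07 in limma after rescaling. Leaving out 1 library kept the RNF145 call in siBOP1 at 8 h in 1 of 6 fits (limma adjusted p up to 0.134) and the RNF139 calls in 5 of 6 (siFLuc) and 0 of 6 (siBOP1, 0.0697 to 0.107). HSD3B7, an enzyme of bile acid synthesis from oxysterols, rose at 12 h by 0.60 in siFLuc and 0.58 in siBOP1, each kept in 5 of 6 such fits. With the replicate block RNF145 and RNF139 were called in all 4 IFN comparisons and HSD3B7 in 3. Of 9 fatty acid genes, 0 were called higher in each comparison and 1, 2, 3 and 1 lower, with FADS1 in all 4. The shares of all genes called lower were 5.07%, 6.43%, 9.11% and 7.58%, and higher 5.77%, 7.06%, 5.99% and 7.17%. FADS1, a desaturase, fell by 0.26 to 0.46 (limma adjusted p at most 0.0126), without overlap of the groups, and in siFLuc at 8 h its adjusted p in limma was 0.177 after rescaling and its call was kept without 1 library in 4 of 6 fits. ACACA, which makes malonyl-CoA, fell by 0.46 in siFLuc at 12 h and by 0.46 in siBOP1 at 8 h, and the latter had an adjusted p of 0.0695 in limma after rescaling. Leaving out 1 library kept the ACACA call in 2 of 6 and 1 of 6 fits. With the replicate block ACACA was called in 3 of the 4 IFN comparisons. Using libraries 1 and 2 only, the ACACA difference in siFLuc at 12 h was -0.39 (limma adjusted p = 0.0949), and the 12 h IFN calls given for MVK, PMVK, STARD4, LIPA, ABCA1, RNF145, HSD3B7 and FADS1 were kept.

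With BOP1 siRNA, 16, 13, 13 and 12 of the 19 synthesis enzymes lay above 0 in mock cells at 8 and 12 h and in IFN-treated cells at 8 and 12 h, with medians of 0.22, 0.10, 0.11 and 0.04 beside medians over all genes of 0.03, 0.00256, -0.01 and -0.01. In mock 8 h 2 were called higher, SQLE and MSMO1, and none lower, with 6 and 2 at an unadjusted p under 0.05. Of the 16062 tested genes 2076 reached that p there, in either direction. Over all genes 1.49% were called higher there and 0.666% lower. In the other 3 comparisons 0 were called higher, where 0.903%, 1.25% and 0.392% of all genes were. There 3, 5 and 0 were higher at an unadjusted p under 0.05, which 2051, 2191 and 1444 of all tested genes reached in either direction. With the replicate block the counts higher were 6, 1, 3 and 0, where 5.91%, 4.31%, 4.97% and 2.16% of all genes were. With libraries 1 and 2 alone they were 7, 4, 4 and 0, where 1.63%, 1.01%, 2.3% and 0.299% of all genes were. MSMO1, the sterol methyl oxidase, was at 142.4, 120.4 and 144.6 TPM in siFLuc mock 8 h and 185.5, 184.9 and 183.7 TPM in siBOP1 mock 8 h (0.45, limma adjusted p = 0.0469). After median-of-ratios rescaling its adjusted p in limma was 0.0654.

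CYP51A1, the lanosterol demethylase, was lower with BOP1 siRNA. It was at 110.5, 102.7 and 132.0 TPM in siFLuc mock 8 h and 87.8, 89.3 and 84.3 TPM in siBOP1 mock 8 h, and at 99.97, 104.4 and 151.7 TPM against 78.8, 81.1 and 78.1 TPM in mock 12 h. No siBOP1 library reached a siFLuc library in either comparison. CYP51A1 fell by 0.55 in mock 12 h and by 0.53 in IFN 8 h (limma adjusted p = 0.0466 and 0.0479), and the differences of -0.39 in mock 8 h and -0.54 in IFN 12 h did not pass. With the replicate block CYP51A1 was called in 3 of the 4 siRNA comparisons. Leaving out 1 library gave -0.66 to -0.36 in mock 12 h (limma adjusted p 0.0391 to 0.202, past the threshold in 2 of 6 fits, with the -0.36 without siFLuc mock library 4) and -0.58 to -0.46 in IFN 8 h (0.0814 to 0.190, past it in none). With libraries 1 and 2 only it was -0.35 in mock 12 h (limma adjusted p = 0.0755) and kept its call in IFN 8 h (-0.43, limma adjusted p = 0.0234). HSD3B7 rose with BOP1 siRNA in mock 8 h (0.58, limma adjusted p = 0.0499) and IFN 8 h (0.86, limma adjusted p = 0.00387), and lay at 0.59 and 0.57 in the 12 h comparisons, which passed with the block. Without 1 library the mock 8 h value ran from 0.48 to 0.73 and passed in 1 of 6 fits, and after rescaling its adjusted p in limma was 0.0794.

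**Figure D5:**
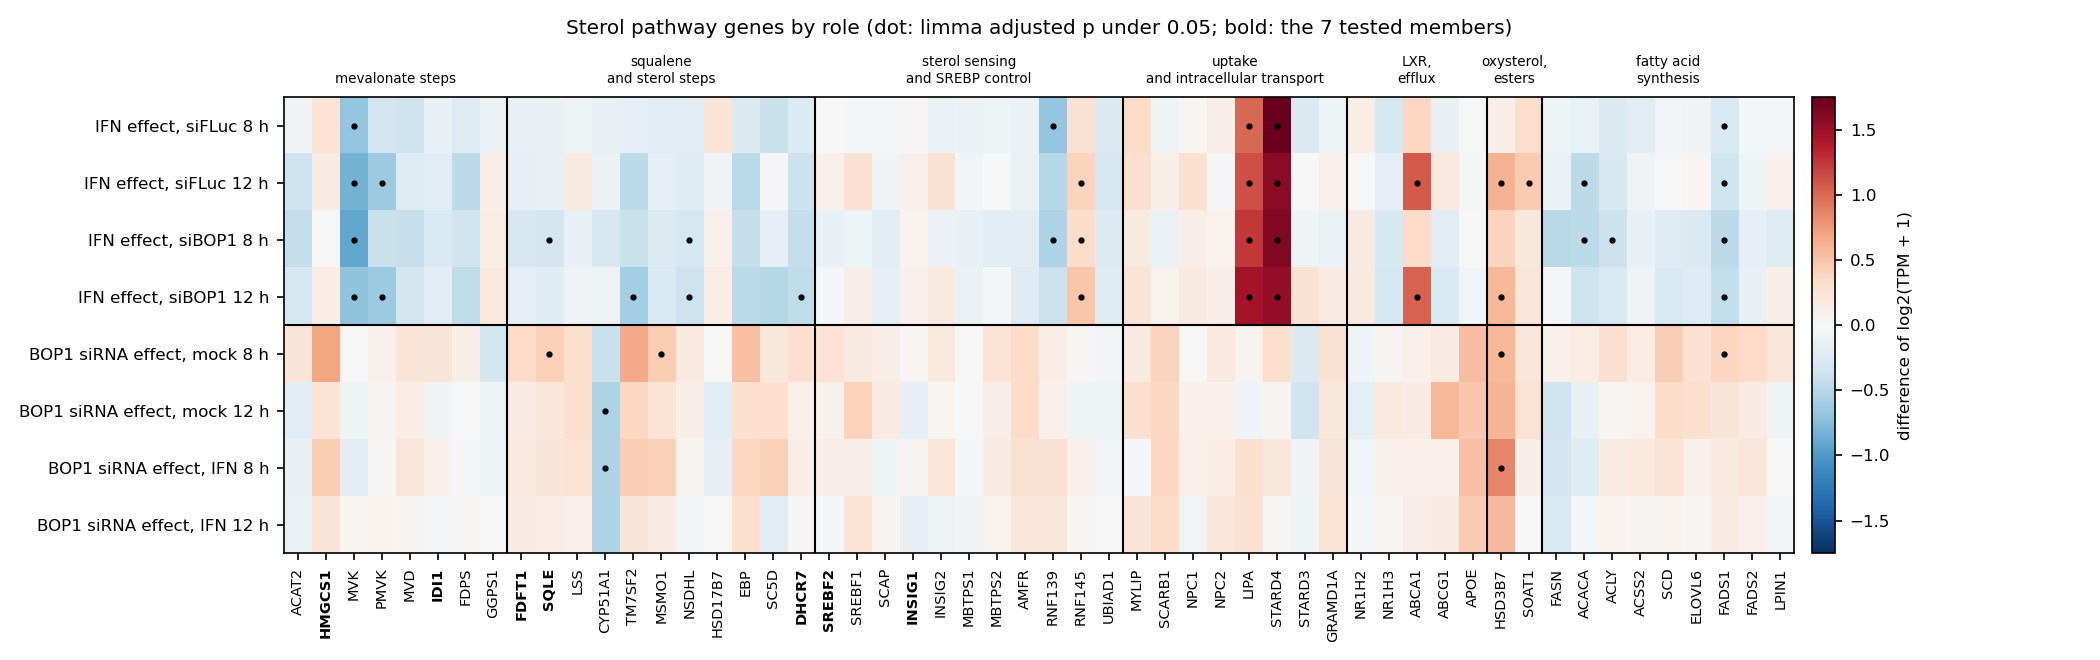
Differences of log2(TPM + 1) (colour) for 54 tested genes of cholesterol and fatty acid metabolism (columns, by role, members in bold) in the 4 IFN and 4 BOP1 siRNA comparisons (rows). Dots mark a limma adjusted p under 0.05. STARD4 and LIPA are the darkest red columns in the IFN rows and MVK the darkest blue. CYP51A1 is blue in the BOP1 siRNA rows, where 16, 13, 13 and 12 of 19 synthesis enzymes lie above 0. The medians of the 19 there are small (0.22, 0.10, 0.11 and 0.04).

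The listed genes called in at least 2 of the 4 time comparisons were 3 genes of efflux and transport. The labels do not say whether cells of 8 h and 12 h shared a plate or harvest, so time cannot be told apart from these. Between 8 h and 12 h ABCG1, a sterol exporter, rose in 3 of 4 comparisons by 0.73 to 0.86 on the log2(TPM + 1) scale. ABCA1 rose with IFN by 1.04 in siFLuc and 1.08 in siBOP1. GRAMD1A, a sterol transporter at membrane contacts, rose with IFN by 0.60 and 0.62. ABCG1 was at only 0.29 to 2.62 TPM over the 24 libraries, near the filter of 1 TPM and the 1 added before the log. Leaving out 1 library kept the ABCA1 calls in all fits, the ABCG1 calls in 3 of 6 (siFLuc IFN), 0 of 6 (siBOP1 mock, limma adjusted p 0.0588 to 0.160) and 4 of 6 (siBOP1 IFN), and the GRAMD1A calls in 2 of 6 and 4 of 6. In the fit to libraries 1 and 2, ABCG1 kept its call in siBOP1 IFN and lost the other two. The GRAMD1A calls ended after median-of-ratios rescaling (limma adjusted p = 0.0668 and 0.0652). With the replicate block GRAMD1A was called in all 4 time comparisons. That block lies within each time, so in a time comparison it takes spread between library numbers out of the error. With it the genes called higher in siFLuc mock went from 19 to 1043, and these 4 calls are not read as support. None of the 19 synthesis enzymes was called at 12 h against 8 h in any of the 4 comparisons, with 0 higher and 0, 1, 2 and 4 lower at an unadjusted p under 0.05. Of the 16062 tested genes 2067, 3094, 1549 and 2897 reached that p, in either direction.

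In GENCODE 29 on GRCh38 the members lie on chromosome 5 at 43289395 to 43313512 (HMGCS1, minus strand), chromosome 10 at 1039152 to 1049170 (IDI1, minus), chromosome 8 at 11795573 to 11839309 (FDFT1, plus) and 124998497 to 125022283 (SQLE, plus), chromosome 11 at 71428193 to 71452868 (DHCR7, minus), chromosome 7 at 155297776 to 155310235 (INSIG1, plus), chromosome 22 at 41833079 to 41907308 (SREBF2, plus) and chromosome 10 at 89205629 to 89207314 (CH25H, minus). HMGCS1, IDI1, FDFT1, DHCR7 and SREBF2 each overlap 1 gene on the opposite strand there, and SREBF2 also holds MIR33A on its own strand. The libraries came from a stranded kit, but how reads of overlapping genes were divided is not given in the sources used here.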

How the data were processed

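A549 libraries (8 groups of 3) were prepared from polyadenylated RNA with a stranded kit, per the labels' protocols. The deposited values are TPM, a share of a column total of 1000000, so strong rises elsewhere lower all other values. The aligner, counting tool and build are not given in the sources used here. Columns were matched to samples by name. Columns numbered 4 (8, 1 per group) match no labelled replicate and were used by group. log2(TPM + 1) was fitted with limma 3.58.1 in R 4.3.3, with 1 mean per group and an intensity trend, for 16062 genes, and tested on simulated data. Same-numbered libraries deviated together (r 0.115 to 0.508 over 8 comparisons), so a fit with a replicate block (column number within time) is printed where it changes a call of a member. For list genes past 0.05 in at least 2 of 4 comparisons, the number of comparisons called with the block is given where it differs. Other settings were a pseudocount of 0.1, no filter, a filter at mean TPM 5, rescaling by median ratios, fewer groups and fewer libraries. Named genes were the 8 members, up to 5 rising and 5 falling list genes past 0.05 in at least 2 of 4 comparisons, and 10 of like pattern. Members and lists were chosen with earlier results of these data known. Some further genes of the pathway are not reported here.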

Additional observations from a re-analysis of the deposited data

How the results depend on the processing

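Limits: depth is unknown from TPM, 3 libraries a group give a coarse test, and the libraries numbered 4 decide the 12 h siRNA calls in mock cells. The counts of members past the threshold were 0, 0, 1 and 1 for IFN (siFLuc at 8 and 12 h, siBOP1 at 8 and 12 h) and 1, 0, 0 and 0 for BOP1 siRNA (mock at 8 and 12 h, IFN at 8 and 12 h). With the replicate block they were 0, 1, 3 and 1, and 3, 0, 0 and 0; the block changed no other count of members. With libraries 1 and 2 only they were 1, 3, 4 and 2, and 3, 3, 1 and 0. In siBOP1 8 h the IFN count was 2 with a mean of at least 5 TPM and 0 after rescaling, in siBOP1 12 h it was 0 with no filter, and in mock 8 h the siRNA count was 0 with only the groups compared. Without 1 library the counts ran from 0 to 1 for IFN in siFLuc 12 h, 0 to 2 in siBOP1 8 h and 0 in each fit of siBOP1 12 h, and for siRNA from 0 to 1 in mock 8 h and 0 to 2 in mock 12 h. A pseudocount of 0.1 changed no count of members. Synthesis enzymes called moved most with the block and with libraries 1 and 2 only, as given above for the block. With libraries 1 and 2 they were 2, 6, 13 and 10 lower with IFN, and 2, 1, 0 and 0 higher. In that fit 8.65%, 11.3%, 13.6% and 13.7% of all genes were lower and 7.33%, 9.85%, 8.13% and 10.2% higher.

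Directions turned mostly for differences under 0.25. Rescaling gave 0.14 for HMGCS1 with IFN in siBOP1 8 h, -0.011 for its 12 h against 8 h difference in siFLuc mock, -0.020 for INSIG1 with siRNA in mock 8 h, and for SREBF2 with IFN 0.080 in siFLuc 8 h, 0.016 in siBOP1 8 h and 0.056 in siBOP1 12 h. Libraries 1 and 2 only gave -0.25 for HMGCS1 over time in siFLuc mock, with siRNA 0.17 and 0.024 for IDI1 and 0.096 and 0.029 for INSIG1 in mock 12 h and IFN 12 h, 0.12 for SREBF2 with IFN in siFLuc 8 h and 0.035 with siRNA in IFN 12 h. The cause was not tested. Leaving out 1 library, HMGCS1 ran from -0.10 to 0.53 (IFN, siFLuc 12 h), -0.081 to 0.033 (IFN, siBOP1 8 h), -0.0051 to 0.63 (siRNA, mock 12 h) and -0.33 to 0.30 (time, siFLuc mock). IDI1 with siRNA ran from -0.14 to 0.078 (mock 12 h), -0.011 to 0.14 (IFN 8 h) and -0.072 to 0.020 (IFN 12 h). SQLE with IFN in siFLuc 12 h ran from -0.21 to 0.0053. DHCR7 with siRNA ran from -0.010 to 0.27 (mock 12 h), -0.0089 to 0.19 (IFN 8 h) and -0.055 to 0.16 (IFN 12 h). INSIG1 with IFN ran from -0.021 to 0.10 (siFLuc 8 h), -0.017 to 0.13 (siBOP1 8 h) and -0.056 to 0.32 (siBOP1 12 h), and with siRNA from -0.035 to 0.10 (mock 8 h) and -0.28 to 0.10 (IFN 12 h). SREBF2 with IFN ran from -0.13 to 0.11 (siFLuc 8 h) and -0.11 to 0.058 (siBOP1 12 h), and with siRNA from -0.0033 to 0.17 (mock 12 h) and -0.11 to 0.0021 (IFN 12 h). HSD3B7 with IFN in siFLuc 8 h ran from -0.034 to 0.26, and ACACA there from -0.25 to 0.018.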
